A study of Mus musculus with 9 samples.

Results

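Costimulatory receptors and TNF superfamily ligands were described at the RNA level in mouse CD8+ T cells that had or had not taken up labelled mitochondria from stromal cells. The members are 10 of the 55421 genes in the count table: the ligands Tnfsf4, Tnfsf14, Tnfsf11 and Cd40lg, the TNF receptor family members Tnfrsf4, Tnfrsf9, Tnfrsf18 and Cd27, and the CD28 family receptors Cd28 and Icos. They were matched by the gene name deposited with the counts, and all 10 had an entry. They were chosen by their family, with their levels in the same 3 groups of libraries already known, so their differences are given as a description and without a p-value. In all, 9 of the 10 passed the filter on low counts, which kept 15711 genes, and Cd40lg did not.

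The T cells were spleen cells of Pmel Ly5.1 mice, a cross of a strain with a transgenic T-cell receptor and a strain with the Ly5.1 allele of CD45, and this genotype was shared by every library. MitoPositive and MitoNegative cells had been co-cultured for 36 h with DM5 cells, BL6 bone marrow mesenchymal stromal cells that had been immortalised as a line and whose mitochondria were labelled with DsRed, a red fluorescent protein, and had then been sorted as DsRed+ and DsRed- cells. Monoculture cells were the control without stromal cells, and the labels do not say whether these were also sorted. Each group had 3 libraries, lettered B, C and D, of ribosomal RNA depleted total RNA. The titles also carry a time of 0 hr that the labels do not explain, and the mice's age is not given. Since nothing says whether a letter stands for an animal or a culture, the errors below measure the spread between these libraries, which may be technical.

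A naive T cell needs a second, costimulatory signal beside that of its antigen receptor, and CD28 on the T cell delivers it on binding CD80 or CD86. ICOS is a related receptor that appears after activation. OX40 (Tnfrsf4), 4-1BB (Tnfrsf9), GITR (Tnfrsf18) and CD27 belong to the TNF receptor family and bind ligands of the TNF family. They pass their signal through TRAF adaptor proteins to NF-kappaB, which favours survival of activated and memory CD8+ T cells. The ligands OX40L (Tnfsf4), LIGHT (Tnfsf14), RANKL (Tnfsf11) and CD40L (Cd40lg) are made by various cells of the immune system, T cells among them. RNA levels do not show the amount of protein at the cell surface.

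Promoter sequences from RefSeq (GRCm38.p6, from 250 bases before to 50 bases after the start site, 5′ to 3′ on the gene's strand) were found for 6 of the 10 members. Those of 4 TNF receptor genes are shown. Among the members, these genes were the receptors that differed most between co-culture and monoculture, 3 of them being higher and Cd27 lower. Capitals mark matches to 3 motifs, searched on both strands: the NF-kappaB consensus, the AP-1 site TGANTCA and the NFAT core GGAAAA, which reads TTTTCC on the other strand.
Tnfrsf9, second start, chr4:150927749-150928048, plus strand: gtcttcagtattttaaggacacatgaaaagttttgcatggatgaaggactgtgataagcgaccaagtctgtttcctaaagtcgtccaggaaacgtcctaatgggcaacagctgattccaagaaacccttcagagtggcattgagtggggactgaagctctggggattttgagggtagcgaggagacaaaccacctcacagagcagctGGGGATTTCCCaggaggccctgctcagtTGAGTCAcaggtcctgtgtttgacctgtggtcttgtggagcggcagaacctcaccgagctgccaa
Tnfrsf4, chr4:156013445-156013744, plus strand: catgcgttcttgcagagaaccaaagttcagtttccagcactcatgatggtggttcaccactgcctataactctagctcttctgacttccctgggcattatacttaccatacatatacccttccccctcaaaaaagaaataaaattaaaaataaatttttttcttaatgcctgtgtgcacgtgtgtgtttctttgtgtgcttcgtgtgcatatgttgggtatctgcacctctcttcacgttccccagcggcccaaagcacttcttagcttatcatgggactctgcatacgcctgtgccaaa
Tnfrsf18, chr4:156026072-156026371, plus strand: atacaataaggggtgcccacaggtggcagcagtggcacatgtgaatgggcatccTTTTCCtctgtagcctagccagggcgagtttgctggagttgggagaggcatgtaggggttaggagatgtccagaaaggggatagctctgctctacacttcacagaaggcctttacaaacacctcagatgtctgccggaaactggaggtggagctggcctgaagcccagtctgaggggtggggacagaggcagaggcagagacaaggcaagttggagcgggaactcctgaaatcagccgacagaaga
Cd27, chr6:125236978-125237277, minus strand: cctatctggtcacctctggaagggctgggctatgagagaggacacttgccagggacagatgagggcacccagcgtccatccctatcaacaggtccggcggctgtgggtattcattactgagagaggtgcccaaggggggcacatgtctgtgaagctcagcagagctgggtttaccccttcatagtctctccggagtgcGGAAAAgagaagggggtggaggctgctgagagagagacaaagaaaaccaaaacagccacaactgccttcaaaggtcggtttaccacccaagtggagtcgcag
Both Tnfrsf9 windows lie inside the gene's deposited span, and only that of the second start, which has more matches, is printed. It has 2 overlapping NF-kappaB matches, which form 1 run of capitals, and 1 AP-1 match nearer to the start site. Tnfrsf18 and Cd27 have 1 NFAT core match each, and the Tnfrsf4 window has no match to any of the 3 motifs. Of the windows not printed, the first Tnfrsf9 start has 1 NFAT core match, Tnfsf14 has 1 AP-1 match and Tnfsf11 has none. Among 32851 promoter windows of the same length, 8.46% held the NF-kappaB consensus, 7.81% the AP-1 site and 23.4% the NFAT core. A match to the NFAT core is thus common, and one to either other motif less so. The matches describe the letters and say nothing of binding. No window was found for Tnfsf4, Icos, Cd28 or Cd40lg.

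The members lie on 6 chromosomes, with 2 clusters (GRCm38, as deposited). Cd28 (chr1:60716800-60773359) and Icos (chr1:60977927-61000320) stand 204567 bases apart on the same strand, with Ctla4 between them. Tnfrsf4 (chr4:156013843-156016612) and Tnfrsf18 (chr4:156026164-156028895) are neighbours on the same strand, 9551 bases apart, and Tnfrsf9 (chr4:150914562-150946102) lies further off on that chromosome. The other members are Tnfsf4 (chr1:161395409-161418410), Cd27 (chr6:125232622-125237010), Tnfsf14 (chr17:57189492-57194177), Tnfsf11 (chr14:78277445-78308043) and Cd40lg (chrX:57212143-57224042). Whether counting used strand is not given, and Cd27, Tnfrsf9 and Tnfrsf18 each overlap a gene on the opposite strand. Among overlapping genes the highest mean over the 9 libraries was 17.7 CPM (counts scaled to the normalised total of the library), at Cd27. There Vamp1 lies on the opposite strand and Mir8113 on the same strand.

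Library totals ran over the 9 libraries between 53546152 and 74722832 counts, and chi-square tests between replicates gave 16.4 to 57.7 for each degree of freedom, well above sampling noise. The T-cell label held: the summed level of 7 markers of CD8+ T cells was 6570 to 6950 CPM in MitoPositive, 6480 to 6760 CPM in MitoNegative and 7130 to 7990 CPM in monoculture, and Cd4 averaged 0.823, 1.10 and 2.06 CPM in the same order of groups. The sum of 10 stromal markers was 10.4 to 28.3 CPM in MitoPositive, 10.3 to 28.8 CPM in MitoNegative and 0.623 to 1.03 CPM in monoculture, where 7 of them were at 0. The sum of 6 B-cell markers was 276 to 306, 364 to 457 and 666 to 738 CPM in the same order, most of it Ighm, and that of 8 myeloid and dendritic markers was 13.3 to 17.9, 13.8 to 23.1 and 9.60 to 18.4 CPM. The sum of 4 markers of CD4+ and regulatory T cells, most of it Ikzf2, was 160 to 229, 173 to 243 and 96.9 to 168 CPM, with Foxp3 under 1 CPM. Zbtb7b, of the same list, was not scarce, at a mean of 53.9, 45.2 and 50.2 CPM, and its MitoPositive libraries lay above those of MitoNegative. The 3 natural killer markers summed to 0.316 to 0.486, 0.416 to 0.773 and 0.466 to 1.21 CPM. The part of such cells in the results was not tested. Fewer cells of a type and less RNA per cell cannot be told apart in these bulk samples.

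Tnfsf4, which encodes OX40L, the ligand of OX40, differed most of all members, with MitoPositive above MitoNegative and both far above monoculture. It had 49.1, 56.7 and 48.7 CPM in MitoPositive libraries B, C and D, 26.5, 31.4 and 29.1 CPM in MitoNegative and 1.28, 1.63 and 2.19 CPM in monoculture. No library of one group overlapped another group, and in monoculture the gene rested on 78, 98 and 132 counts. MitoPositive was 1.78-fold higher than MitoNegative (log2 0.83 ± 0.123, SE), and the ratio within a letter was 1.86, 1.81 and 1.67 for B, C and D. Against monoculture, MitoPositive was 30.3-fold higher (log2 4.92 ± 0.156) and MitoNegative 17.1-fold higher (4.09 ± 0.154). OX40L is best known from antigen-presenting cells and is also made by activated T cells. The summed B-cell markers, mostly Ighm, ran the other way. The summed stromal markers, like Tnfsf4, were higher in both co-cultured groups but overlapped between MitoPositive and MitoNegative. The summed myeloid and dendritic markers overlapped between all 3 groups, though single ones did not move together. Zbtb46, a dendritic cell factor, averaged 4.02 CPM in MitoPositive, 3.68 CPM in MitoNegative and 1.15 CPM in monoculture and rose in both against monoculture (log2 1.80 ± 0.209, edgeR adjusted p = 3.97e-05, and 1.67 ± 0.209, adjusted p = 8.99e-05), while the macrophage marker Adgre1 fell in both, with 0.0964, 0.139 and 0.844 CPM in the same order. Zbtb46 alone of the 8 markers passed as higher than monoculture in both co-cultured groups. Of the same list, Flt3 averaged 0.360, 0.293 and 0.589 CPM in MitoPositive, MitoNegative and monoculture. Xcr1 averaged 0.319, 0.161 and 0.204 CPM in the same order, and neither gene passed against monoculture. The part of these cells in the Tnfsf4 values was not tested.

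**Figure D1:**
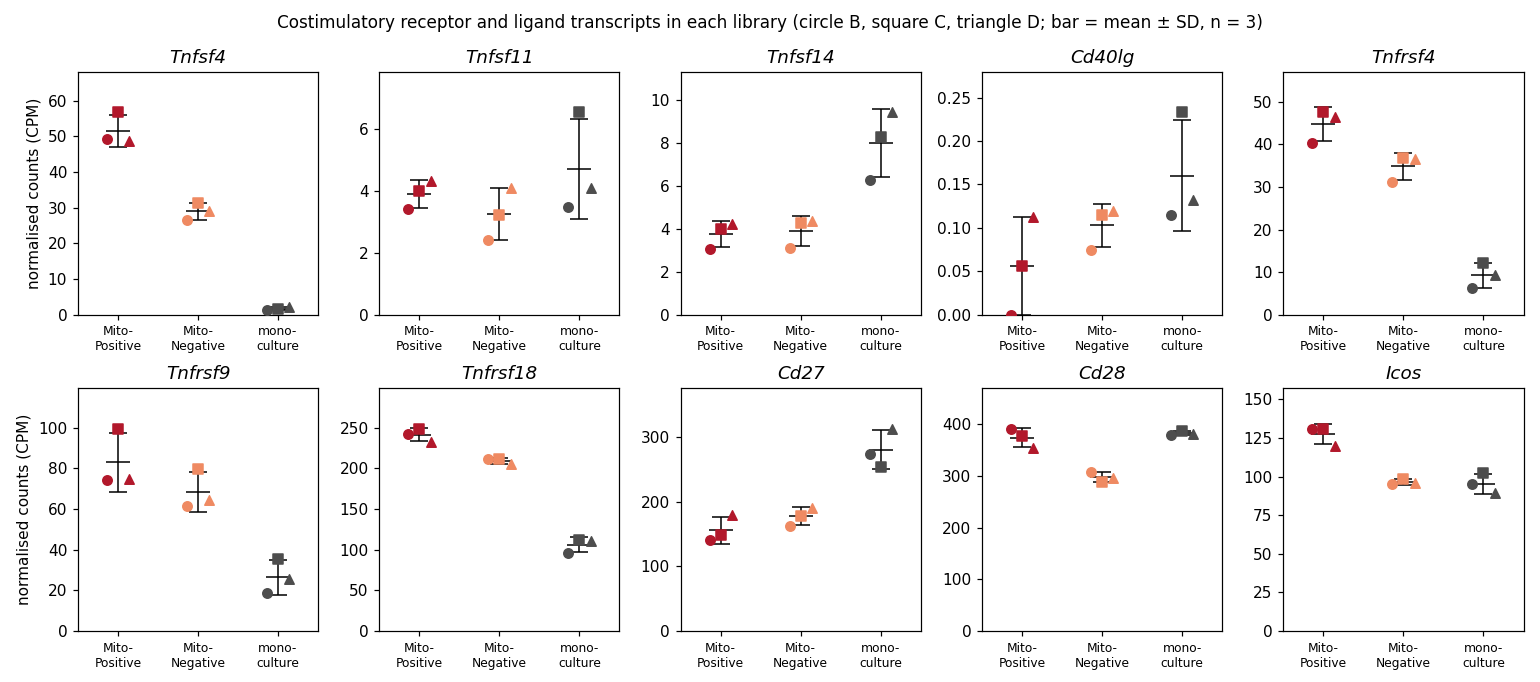
Level of each member in CPM (y axes, linear, each from 0) in the libraries of MitoPositive, MitoNegative and monoculture cells; circles, squares and triangles are libraries B, C and D, and bars give the mean ± SD (n = 3). Tnfsf4 averages 51.5, 29.0 and 1.70 CPM in this order of groups, while Cd27 and Tnfsf14 are highest in monoculture and Cd40lg stays near 0.

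The other 3 ligands were scarce. Tnfsf14, which encodes LIGHT, a ligand of HVEM and of the lymphotoxin beta receptor, had 3.08, 4.01 and 4.23 CPM in MitoPositive, 3.09, 4.27 and 4.36 CPM in MitoNegative and 6.28, 8.28 and 9.42 CPM in monoculture. Both co-cultured groups lay below every monoculture library, and they overlapped each other. On the log2 scale the difference was -1.08 ± 0.190 in MitoPositive and -1.03 ± 0.189 in MitoNegative against monoculture, and -0.05 ± 0.191 between the sorted groups. Within every group, library B was the lowest.

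Tnfsf11 encodes RANKL, the ligand of RANK, which drives osteoclast formation and also acts on dendritic cells. It had 3.41, 4.01 and 4.31 CPM in MitoPositive, 2.42, 3.24 and 4.11 CPM in MitoNegative and 3.49, 6.54 and 4.11 CPM in monoculture, so that all 3 groups overlapped. MitoPositive differed from MitoNegative by 0.26 ± 0.245 and from monoculture by -0.27 ± 0.243 (log2), and MitoNegative differed from monoculture by -0.53 ± 0.244. Without monoculture library C the difference from monoculture was 0.04 in MitoPositive and -0.22 in MitoNegative. Under the alternatives the value of MitoNegative ran between -0.82 and -0.22, and it passed the test without monoculture B (-0.71). Cd40lg, the CD40 ligand by which helper T cells license antigen-presenting cells, had 0, 3 and 8 counts in MitoPositive, 5, 8 and 8 counts in MitoNegative and 7, 14 and 8 counts in monoculture. It was not fitted, and no fold is given at that depth.

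Of the TNF receptors, Tnfrsf4, Tnfrsf9 and Tnfrsf18 shared an order of group means, MitoPositive above MitoNegative above monoculture. Tnfrsf4 encodes OX40, the receptor of the Tnfsf4 product. It had 40.2, 47.5 and 46.5 CPM in MitoPositive, 31.1, 36.8 and 36.6 CPM in MitoNegative and 6.33, 12.1 and 9.31 CPM in monoculture, with no overlap between any pair of groups. The sorted groups differed by 0.36 ± 0.189 (log2), a ratio of 1.29, 1.29 and 1.27 within letters B, C and D. Against monoculture, MitoPositive was 4.84-fold higher (log2 2.27 ± 0.203) and MitoNegative 3.77-fold higher (1.92 ± 0.201).

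Tnfrsf9 encodes 4-1BB, an inducible costimulatory receptor of CD8+ T cells. Its level was 74.3, 99.6 and 75.0 CPM in MitoPositive, 61.5, 79.6 and 64.4 CPM in MitoNegative and 18.5, 35.5 and 25.4 CPM in monoculture. Library C was the highest in each group, and MitoPositive overlapped MitoNegative while both lay above monoculture. Within a letter MitoPositive stood 1.21, 1.25 and 1.16 times as high as MitoNegative, a fitted log2 difference of 0.28 ± 0.237 that was 0.12 without MitoPositive C and 0.40 without MitoNegative C. Against monoculture the log2 difference was 1.65 ± 0.246 in MitoPositive and 1.37 ± 0.245 in MitoNegative, and the call of MitoNegative was lost without letter D.

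Tnfrsf18 encodes GITR, which is high on regulatory T cells and is induced on activated effector cells. It had 242, 249 and 233 CPM in MitoPositive, 211, 211 and 205 CPM in MitoNegative and 95.5, 112 and 111 CPM in monoculture. The groups were apart from each other, with a narrow gap between the sorted ones (log2 0.21 ± 0.0666) and a wide one to monoculture, at 1.18 ± 0.0677 for MitoPositive and 0.98 ± 0.0675 for MitoNegative. The regulatory T-cell gene Foxp3 averaged 0.327, 0.273 and 0.281 CPM in MitoPositive, MitoNegative and monoculture, and Ikzf2, which activated T cells also express, averaged 142, 157 and 76.9 CPM.

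Cd27, a receptor that resting naive and memory T cells carry and that binds CD70, ran the other way. It had 140, 148 and 179 CPM in MitoPositive, 163, 178 and 191 CPM in MitoNegative and 274, 254 and 313 CPM in monoculture. The sorted groups overlapped, and within each letter MitoPositive was the lower, with ratios of 0.857, 0.831 and 0.940. The log2 difference from monoculture was -0.85 ± 0.104 in MitoPositive and -0.66 ± 0.104 in MitoNegative, and that between the sorted groups was -0.19 ± 0.103, with -0.30 without MitoPositive D and -0.12 without MitoPositive B. B cells also express Cd27, and the summed B-cell markers, lowest in MitoPositive and highest in monoculture, had the same order of groups. Most of that sum was Ighm, with 271 CPM in MitoPositive and 388 CPM in MitoNegative. Between the sorted groups Ighm passed as lower and the other 5 markers did not pass. The part of B cells in the Cd27 values was not tested.

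Of the members, the CD28 family receptors Icos and Cd28 had no overlap between MitoPositive and MitoNegative, but each had a different relation to monoculture. Between the sorted groups Icos passed edgeR's test at an adjusted p of 0.05 and Cd28 did not. Icos had 131, 131 and 120 CPM in MitoPositive, 95.3, 98.5 and 95.8 CPM in MitoNegative and 94.9, 102 and 89.2 CPM in monoculture. Every MitoPositive library lay above the other 6 libraries, among which the groups overlapped. The log2 difference was 0.40 ± 0.0624 against MitoNegative and 0.42 ± 0.0625 against monoculture, while MitoNegative differed from monoculture by 0.02 ± 0.0625.

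Cd28, by contrast, was lowest in MitoNegative cells. It had 392, 378 and 354 CPM in MitoPositive, 308, 288 and 297 CPM in MitoNegative and 380, 387 and 382 CPM in monoculture. MitoPositive and monoculture overlapped, with a log2 difference of -0.03 ± 0.0596, and MitoNegative lay below both. The log2 difference was 0.33 ± 0.0597 for MitoPositive against MitoNegative and -0.37 ± 0.0597 for MitoNegative against monoculture.

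**Figure D2:**
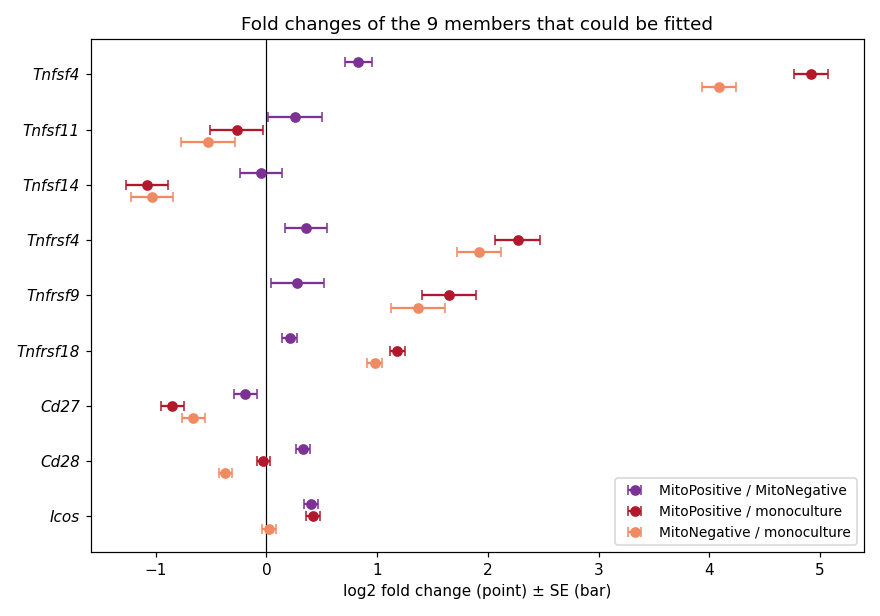
Fitted log2 fold change (x axis) with its standard error (bars, n = 3 libraries a group) of the 9 fitted members (rows) in 3 comparisons, MitoPositive against MitoNegative, MitoPositive against monoculture and MitoNegative against monoculture. The differences between the sorted groups stay between -0.19 and 0.83, whereas those from monoculture reach 4.92.

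As a count, 2 of the 9 fitted members, Tnfsf4 and Icos, passed edgeR's test at an adjusted p of 0.05 as higher in MitoPositive than in MitoNegative cells and 0 as lower. Over all tested genes 0.0891% passed as higher and 0.0764% as lower. The libraries of these groups did not overlap for 5 members, all higher in MitoPositive (Tnfsf4, Icos, Cd28, Tnfrsf4 and Tnfrsf18), and for 20.0% of all tested genes in either direction. Against monoculture, 5 members passed as higher in MitoPositive (Tnfsf4, Tnfrsf4, Tnfrsf9, Tnfrsf18 and Icos) and 2 as lower (Cd27 and Tnfsf14), where 22.3% of all tested genes were higher and 19.9% lower. The groups did not overlap for the same 7 members, and for 51.6% of all tested genes. For MitoNegative against monoculture, 4 passed as higher (Tnfsf4, Tnfrsf4, Tnfrsf9 and Tnfrsf18) and 3 as lower (Cd28, Cd27 and Tnfsf14), where 20.6% of all tested genes were higher and 18.3% lower, and those 7 did not overlap, as for 48.7% of all tested genes. Since the members were chosen with these comparisons in view, nothing is read from the counts. The median log2 fold change of the 9 was 0.28, 0.42 and 0.02 in these 3 comparisons, against 0.00, 0.00 and 0.01 over all tested genes, and the median of its absolute size was 0.28, 1.08 and 0.98, against 0.11, 0.29 and 0.27. Both comparisons with monoculture share the same monoculture libraries.

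The calls between the sorted groups depended on the fit. Same-letter libraries of the sorted groups deviated together, and with the letter as a replicate block over all 9 libraries Cd28 also passed as higher in MitoPositive (log2 0.33 ± 0.0588), making 3 members, where 1.26% of all tested genes passed as higher and 1.08% as lower. A fit of the 6 sorted libraries alone with the block called 6 members higher (Tnfsf4, Icos, Cd28, Tnfrsf9, Tnfrsf4 and Tnfrsf18) and Cd27 lower, and 18.2% of 15431 tested genes in either direction. In that fit Tnfrsf9 had a log2 difference of 0.28 ± 0.0338 and Cd27 of -0.19 ± 0.0354, so the estimates were those of the fit without the block and the errors were smaller. The block also called Tnfsf11 lower in MitoNegative than in monoculture (log2 -0.52), where 21.5% of all tested genes passed as lower. Tnfsf4 and Icos each lost the call in 9 of 21 alternatives, with log2 differences between 0.75 and 0.89 for Tnfsf4 and between 0.37 and 0.44 for Icos. Both lost it without MitoPositive B or C, without any 1 MitoNegative library and without letter B or C, and Tnfsf4 also lost it without monoculture C.

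**Figure D3:**
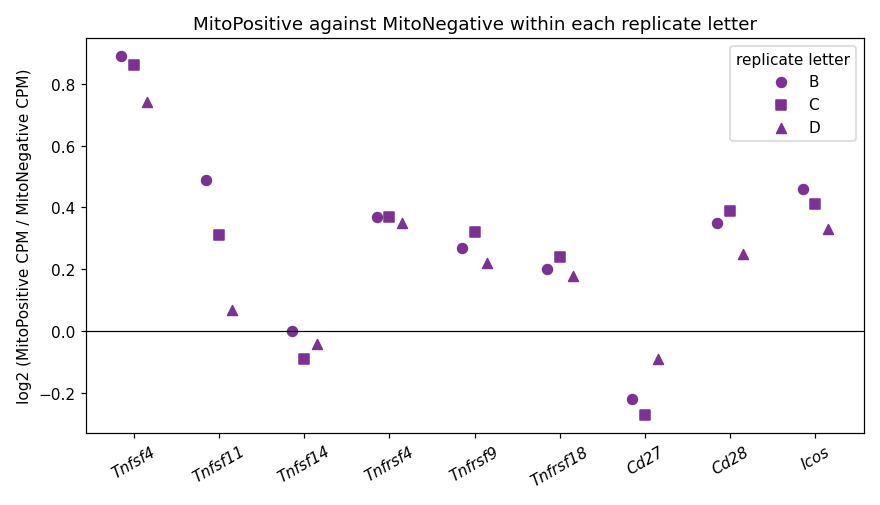
Log2 ratio of CPM in MitoPositive over MitoNegative cells (y axis) within each letter (B, C and D, points) for the 9 fitted members (x axis), with a line at 0. For Tnfsf4, Icos, Cd28, Tnfrsf9, Tnfrsf4, Tnfrsf18 and Tnfsf11 all 3 points lie above 0, and for Cd27 and Tnfsf14 they lie below it or on it.

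Levels per kilobase of exon allow members to be ordered within a group. Tnfrsf18 led in MitoPositive cells with 158 CPM per kb, followed by Cd27 with 66.8 and Cd28 with 61.2, whose libraries overlapped, and by Icos with 37.1. Below these came Tnfrsf4 with 32.8, Tnfrsf9 with 30.5 and Tnfsf4 with 28.0 CPM per kb, where each neighbour overlapped the next, then Tnfsf14 with 2.04 and Tnfsf11 with 1.75, which overlapped, and Cd40lg with 0.0447. The order in MitoNegative cells was the same at other levels, with Tnfrsf18 at 137, Cd27 at 76.1, Cd28 at 48.6 and Icos at 28.1 CPM per kb, then Tnfrsf4 at 25.5 and Tnfrsf9 at 25.2, which overlapped, and Tnfsf4 at 15.7, Tnfsf14 at 2.11, Tnfsf11 at 1.46 and Cd40lg at 0.0820. In monoculture Cd27 led with 120 CPM per kb, and Tnfrsf18 with 69.7 and Cd28 with 62.6 overlapped. Icos followed with 27.8, Tnfrsf9 with 9.72, Tnfrsf4 with 6.77 and Tnfsf14 with 4.33, the last 3 overlapping from neighbour to neighbour, while Tnfsf11 stood at 2.11, Tnfsf4 at 0.922 and Cd40lg at 0.128 CPM per kb.

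Ratios of levels per kilobase within a library set receptors beside their ligand or relative. OX40L RNA over OX40 RNA was 0.856 ± 0.0700 in MitoPositive, 0.617 ± 0.0233 in MitoNegative and 0.141 ± 0.0378 in monoculture cells (SD over 3 libraries each). Tnfrsf18 over Cd27 was 2.40 ± 0.361 in MitoPositive, 1.81 ± 0.166 in MitoNegative and 0.583 ± 0.0777 in monoculture. Icos over Cd28 was 0.607 ± 0.0122 in MitoPositive and 0.580 ± 0.0289 in MitoNegative, and 0.445 ± 0.0271 in monoculture. Within letters B, C and D it was 0.595, 0.620 and 0.606 in MitoPositive, against 0.553, 0.610 and 0.577 in MitoNegative, higher in MitoPositive in each. The neighbours Tnfrsf4 and Tnfrsf18 did not keep one ratio, which was 0.207 ± 0.0196 in MitoPositive, 0.186 ± 0.0189 in MitoNegative and 0.0960 ± 0.0235 in monoculture.

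Likeness of profile was measured as the root mean square difference of log2 CPM, centred per gene, over the 9 libraries. Among members, Tnfrsf9 and Tnfrsf4 were nearest to each other at 0.303, Tnfrsf18 was nearest to Tnfrsf9 at 0.309, Cd27 and Tnfsf14 to each other at 0.224 and Icos and Cd28 to each other at 0.206. Tnfsf4 stood apart, its nearest member being Tnfrsf4 at 1.16. Of 10008 genes with a symbol and a mean log2 CPM of at least 1, those most like Tnfsf4 were Cdkn1a, a cyclin-dependent kinase inhibitor, at 0.235, Cox6b2, a cytochrome c oxidase subunit, at 0.365 and Gzmb, the cytotoxic protease granzyme B, at 0.371. Cdkn1a averaged 187, 108 and 4.65 CPM in MitoPositive, MitoNegative and monoculture. For Icos the nearest were Agpat5 at 0.0693, Ints2 at 0.0709 and Nomo1 at 0.0809, and such small values are easily reached by genes that vary little.

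Beside the members, 74 other genes of these pathways were examined in 5 lists, of which 62 were tested. Between MitoPositive and MitoNegative cells 0 of the 62 passed edgeR's test, 9 had an unadjusted p under 0.05, and 2 passed in DESeq2 and 1 in limma voom. With the replicate block Pdcd1, Cd80 and Tnfrsf10b passed. Against monoculture, 28 of the 62 rose and 19 fell in MitoPositive cells (45.2% and 30.6%, against 22.3% and 19.9% of all tested genes), and 25 rose and 17 fell in MitoNegative cells (40.3% and 27.4%, against 20.6% and 18.3%). The lists were chosen with earlier results of these data known, and the counts by list below are descriptions to be read beside these shares.

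**Figure D4:**
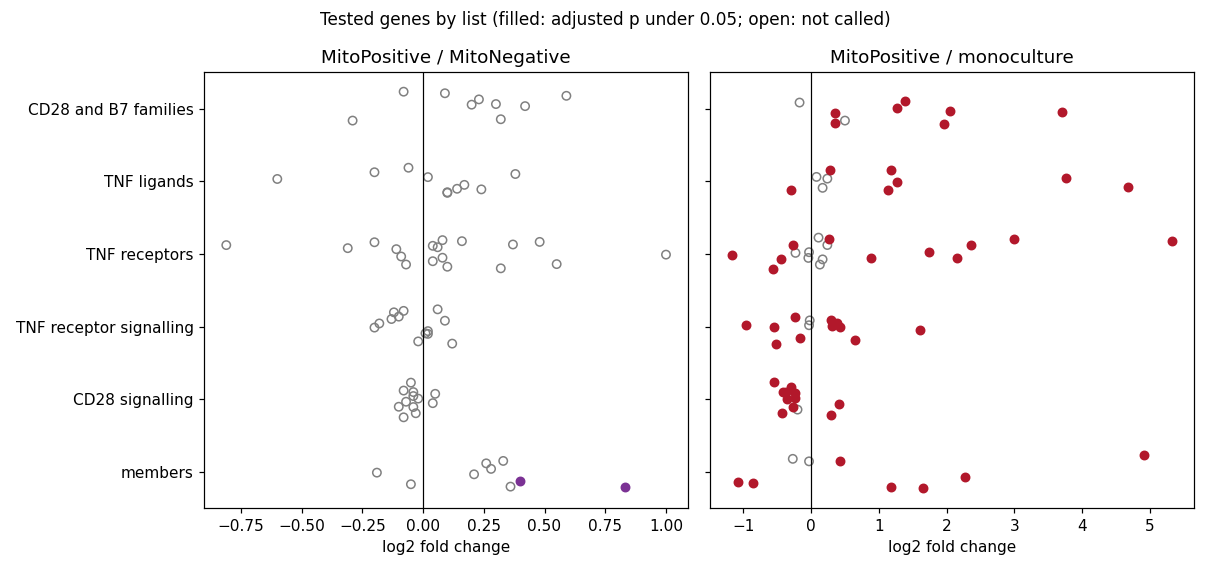
Fitted log2 fold change (x axis) of each tested gene in the members and in 5 lists of related genes (y axis). The comparisons are MitoPositive against MitoNegative and MitoPositive against monoculture, and filled points passed edgeR's adjusted p of 0.05. Outside the members no point is filled in the first comparison, while in the second 28 genes of the other lists rose and 19 fell. Some of the points furthest to the right, such as Cd70, rest on few counts in monoculture.

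The partners of the members gave values for both sides of some pairs. Cd80, which encodes a ligand of CD28 and CTLA-4, had 43.4, 44.7 and 39.8 CPM in MitoPositive, 27.8, 29.4 and 27.7 CPM in MitoNegative and 11.0, 13.0 and 8.79 CPM in monoculture. These libraries did not overlap between any groups. It rose in MitoPositive (log2 1.96 ± 0.115, edgeR adjusted p = 3.07e-07) and in MitoNegative cells (1.37 ± 0.114, adjusted p = 5.92e-06) against monoculture. Between the sorted groups it missed the threshold (0.59 ± 0.110, edgeR adjusted p = 0.0575) but passed with the replicate block (adjusted p = 0.00820) and in 9 other alternatives, among them those without MitoPositive D (adjusted p = 0.0492), monoculture C (0.0484), monoculture D (0.0180) and letter D (0.0223). The other CD28 ligand, Cd86, followed the letters: it had 21.9, 11.8 and 6.11 CPM in MitoPositive, 26.2, 15.4 and 7.43 CPM in MitoNegative and 13.2, 8.60 and 6.34 CPM in monoculture for B, C and D, and passed no comparison in the fit without the block. With the replicate block it passed as higher than monoculture in MitoPositive (log2 0.40 ± 0.136, edgeR adjusted p = 0.0344) and in MitoNegative cells (0.70 ± 0.136, adjusted p = 0.00189). Without the block its edgeR adjusted p was 0.561 and 0.364 in the same order. By the pairing rule given below, the letters of MitoPositive and monoculture were not taken as paired.

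Icosl, the ligand of ICOS, averaged 7.10 ± 1.24 CPM in MitoPositive, 5.68 ± 0.406 CPM in MitoNegative and 2.70 ± 1.21 CPM in monoculture cells (SD over 3 libraries each), and rose against monoculture in both (log2 1.39 ± 0.259, edgeR adjusted p = 0.00139, and 1.07 ± 0.259, adjusted p = 0.00737), the second call being lost without letter B (log2 0.82, adjusted p = 0.0639) or D (1.02, adjusted p = 0.0613). Ctla4, the inhibitory relative that lies between Cd28 and Icos, averaged 284 ± 10.4, 241 ± 14.4 and 223 ± 29.5 CPM in the same order of groups and rose in MitoPositive against monoculture (log2 0.35 ± 0.0890, edgeR adjusted p = 0.00800), a call lost without letter B (log2 0.37, adjusted p = 0.0548). Tnfrsf14, which encodes the LIGHT receptor HVEM, fell in both MitoPositive (log2 -0.56 ± 0.0739, edgeR adjusted p = 9.72e-05) and MitoNegative cells (-0.47 ± 0.0738, adjusted p = 0.000413) against monoculture, in the same direction as Tnfsf14. Cd70, the ligand of CD27, had 11, 16 and 10 counts in MitoPositive, 11, 24 and 24 counts in MitoNegative and 0, 0 and 1 count in monoculture. Tnfsf9, the 4-1BB ligand, averaged 1.21, 1.19 and 1.02 CPM in MitoPositive, MitoNegative and monoculture and did not pass in any comparison. Cd40, the receptor of CD40L, had 25, 35 and 37 counts in MitoPositive, 42, 87 and 49 counts in MitoNegative and 30, 41 and 21 counts in monoculture, and passed with the replicate block as higher in MitoNegative than in monoculture (log2 0.75 ± 0.252, edgeR adjusted p = 0.0330, against 0.77 ± 0.357 and 0.110 without the block). Tnfsf18, the GITR ligand, had at most 2 counts in a library, and the RANKL receptors Tnfrsf11a and Tnfrsf11b were below the filter. Ltbr, the other LIGHT receptor, had 13, 7 and 22 counts in MitoPositive, 18, 13 and 10 counts in MitoNegative and 0, 5 and 2 counts in monoculture.

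Of the 9 tested other genes of the CD28 and B7 families, 7 rose and 0 fell in MitoPositive, and 5 rose and 1 fell in MitoNegative, against monoculture, where 22.3% of all tested genes were higher and 19.9% lower in MitoPositive, and 20.6% and 18.3% in MitoNegative. Pdcd1lg2, which encodes PD-L2, rose to 26.9 ± 2.97 CPM in MitoPositive and 21.9 ± 0.570 CPM in MitoNegative, against 2.06 ± 0.696 CPM in monoculture (log2 3.71 ± 0.193, edgeR adjusted p = 3.63e-07, and 3.41 ± 0.192, adjusted p = 1.07e-06). Pdcd1, the inhibitory receptor PD-1, rose by 2.05 ± 0.198 (edgeR adjusted p = 8.18e-05) in MitoPositive and by 1.63 ± 0.196 (adjusted p = 0.000353) in MitoNegative on the log2 scale. Of the 10 tested TNF ligands, 6 rose and 1 fell in MitoPositive, and 5 rose and 0 fell in MitoNegative. Among them Fasl, the death ligand, rose by 1.27 ± 0.167 (edgeR adjusted p = 0.000324) and 1.03 ± 0.166 (adjusted p = 0.00130), Tnf by 1.18 ± 0.151 (8.01e-05) and 0.80 ± 0.150 (0.00144), and Tnfsf8, which encodes CD30L, by 1.13 ± 0.0726 (4.85e-07) and 0.96 ± 0.0724 (2.73e-06), the first value being that of MitoPositive and the second that of MitoNegative.

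Of 18 other TNF receptors tested, 7 rose and 4 fell both in MitoPositive and in MitoNegative cells against monoculture, beside 22.3% higher and 19.9% lower among all tested genes in MitoPositive and 20.6% and 18.3% in MitoNegative. Tnfrsf10b, the mouse receptor of the death ligand TRAIL, rose by 2.15 ± 0.115 (edgeR adjusted p = 1.43e-07) in MitoPositive and 1.67 ± 0.114 (adjusted p = 1.37e-06) in MitoNegative on the log2 scale, and Tnfrsf23, a decoy TRAIL receptor, by 1.74 ± 0.142 (2.81e-06) and 1.41 ± 0.141 (1.83e-05). Tnfrsf13c, the BAFF receptor of B cells, fell in MitoPositive (log2 -1.17 ± 0.196, edgeR adjusted p = 0.000537) and in MitoNegative (-0.97 ± 0.194, adjusted p = 0.00213). The B-cell markers moved the same way, and their part in this value was not tested.

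Of 13 downstream genes of TNF receptors, 6 rose and 5 fell in MitoPositive, and 6 rose and 4 fell in MitoNegative, against monoculture. Among all tested genes 22.3% were higher and 19.9% lower in MitoPositive, and 20.6% and 18.3% in MitoNegative. Tnfaip3, which encodes A20, an inhibitor of NF-kappaB, rose by 1.61 ± 0.0953 (edgeR adjusted p = 2.90e-07) in MitoPositive and 1.52 ± 0.0951 (adjusted p = 7.99e-07) in MitoNegative, and Birc3, the ubiquitin ligase cIAP2, by 0.65 ± 0.0698 (2.23e-05) and 0.52 ± 0.0697 (0.000137). Traf5, an adaptor that binds several of these receptors, fell in MitoPositive (log2 -0.96 ± 0.0864, edgeR adjusted p = 6.17e-06) and in MitoNegative (-0.77 ± 0.0859, adjusted p = 4.13e-05). Of 12 genes of the CD28 signal, 2 rose and 9 fell in MitoPositive, and 2 rose and 8 fell in MitoNegative, where 19.9% and 18.3% of all tested genes were lower. Grap2, the adaptor GADS, fell in MitoPositive (log2 -0.54 ± 0.0838, edgeR adjusted p = 0.000299) and in MitoNegative (-0.51 ± 0.0837, adjusted p = 0.000639), and Pik3r1, a regulatory subunit of phosphoinositide 3-kinase, fell in MitoPositive (-0.43 ± 0.0511, adjusted p = 4.95e-05) and in MitoNegative (-0.39 ± 0.0511, adjusted p = 0.000115). Lck, the kinase that starts the T-cell receptor signal, fell in MitoPositive (log2 -0.41 ± 0.0669, edgeR adjusted p = 0.000485) and in MitoNegative (-0.46 ± 0.0670, adjusted p = 0.000274). General T-cell markers moved with these genes: of 7 markers of CD8+ T cells, Lck among them, 4 fell in MitoPositive and 5 in MitoNegative against monoculture and 0 rose, and their part in the list's counts was not tested. The paracaspase gene Malt1 rose in MitoPositive (log2 0.41 ± 0.103, edgeR adjusted p = 0.00715) and in MitoNegative (0.49 ± 0.103, adjusted p = 0.00303), the first of these being lost without letter B (0.42, adjusted p = 0.0783).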

How the data were processed

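Total RNA was sequenced from 9 libraries of CD8+ T cells, 3 in each group. Tools behind the counts, per the submitters' processing notes, were STAR 2.7 and featureCounts on the build GRCm38, beside bcl2fastq, cutadapt and DESeq2; the annotation release and strandedness are not given in the sources used here. The deposited table holds raw counts for 55520 entries, of which 99 are spike-ins with 0 counts and were left out. Gene names, coordinates and exon bases are those the authors deposited with the counts.

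In R 4.3.3, edgeR 4.0.16 kept 15711 genes by filterByExpr (minimum count 10, minimum total 15), holding at least 99.96% of each library's counts. Libraries were scaled by TMM and a robust quasi-likelihood model of group took in all 9 (6 residual degrees of freedom), with Benjamini-Hochberg adjustment over all tested genes and a threshold of 0.05. The standard error was the absolute log2 fold change over the square root of F. The procedure was tested on simulated counts with the same dispersion for all genes and no effect of the letter. That test therefore cannot speak to the fits with the letter as a block. CPM used the TMM-scaled totals. Members and lists were chosen with earlier results of these data known. From each other list, and in each comparison, up to 3 called genes with the largest change and a mean log2 CPM of at least 1 were named, plus the members' partners.

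Replicate letters were taken to pair libraries where every same-letter correlation of deviations passed 0.1. It was 0.402, 0.339 and 0.459 between MitoPositive and MitoNegative, 0.213, 0.153 and 0.111 between MitoNegative and monoculture, and 0.248, 0.0521 and 0.163 between MitoPositive and monoculture, which were not paired by this rule. The pairing comes from the data, since the labels do not say what a letter marks. Alternatives were other scalings, filters and tools (DESeq2 1.42.0, limma voom 3.58.1), the letter as a block (4 residual degrees of freedom), fits of a comparison's own libraries, and leaving out each library or letter.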

Additional observations from a re-analysis of the deposited data

How the results depend on the processing

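Against monoculture 7 members passed for MitoPositive in each of the 21 alternatives, and 6 to 8 for MitoNegative. In the fit of all 9 libraries without the block, 22.3% of all tested genes were higher and 19.9% lower in MitoPositive. For MitoNegative these shares were 20.6% and 18.3%. The members were chosen with these comparisons in view, so nothing is read from the counts. With a library or letter left out, 4122 to 6695 genes passed for MitoPositive against monoculture and 3495 to 6037 for MitoNegative. Of 567 values of members under the alternatives, 526 kept direction and call, 19 lost the call, 13 gained it and 9 turned, all of them near 0. Tnfsf14 between the sorted groups turned to log2 0.08 without MitoPositive B, 0.02 without MitoNegative C and 0.03 without MitoNegative D. Cd28 in MitoPositive against monoculture turned to 0.01 without MitoPositive D and 0.02 without letter D. In the same comparison Tnfsf11 turned to 0.04 without monoculture C and 0.02 without letter C. Icos in MitoNegative against monoculture turned to -0.02 without monoculture D and -0.02 without letter D. The furthest values that kept their direction were -0.19 for Tnfsf14 without MitoNegative B and -0.07 for Cd28 without MitoPositive B. For Tnfsf11 this was -0.45 without monoculture B, and for Icos 0.07 without monoculture C. Of 756 values for 36 named results of the other pathway genes, 742 kept direction and call, 4 lost the call, 10 gained it and 0 turned, and the 10 were all Cd80 between the sorted groups.

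Between MitoPositive and MitoNegative the number of calls depended on the setting, and the cause was not tested. Of all genes 26 passed (1646 with an unadjusted p under 0.05), against 15 with DESeq2's size factors, 14 with total counts as the scale, 171 without a filter, 4 with at least 1 CPM in 3 libraries, 418 in DESeq2, 367 with the replicate block, 65 with the sorted libraries alone and 2810 with these and the block, and 0 to 120 with a library or letter left out. The share of higher calls was 53.8%, against 66.7% with DESeq2's size factors and 71.4% with total counts. Of the members 2 passed, against 1 with total counts, 0 with the stricter filter, 7 with the sorted libraries and the block, and 0 to 3 with a library or letter left out. Of the other pathway genes 0 passed, against 2 without a filter, 2 in DESeq2, 1 in limma voom, 3 with the block, 1 with the sorted libraries alone, 19 with these and the block, and 0 to 1 with a library or letter left out. Tnfsf4 lost its call with the stricter filter, without MitoPositive B or C, any 1 MitoNegative library or monoculture C, and without letter B or C. Icos lost it with total counts, with the stricter filter, without MitoPositive B or C or any 1 MitoNegative library, and without letter B or C. Depth limits Cd40lg, Cd70, Ltbr and Tnfsf18, which had few counts.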
